A study of Mus musculus with 8 samples.

Results

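The 2 epidermal libraries titled DMBA/TPA were compared directly with the 2 titled DMBA, treated against treated, by sample title alone, which took 4 of the 8 libraries of the series. The epidermis came from the back skin of wild-type FVB mice, given as 7 to 8 weeks old, and was lifted off the dermis with Dispase II before RNA extraction. DMBA mice had received 100 µl of 7,12-dimethylbenz[a]anthracene at 1 mg/ml on a single occasion and were harvested on day 10. DMBA/TPA mice had received the same DMBA dose, then 12-O-tetradecanoylphorbol-13-acetate at 0.1 mg/ml 2 times a week, and were harvested on day 52. The same age is given for both harvest days. Regimen, harvest day and any difference in age at harvest therefore changed together, and their parts in any difference cannot be told apart. Acetone libraries, 2 for each regimen, stayed out of the comparison and are given beside it as background under their sample titles, Control DMBA and Control DMBA TPA. The labels give no harvest day for the acetone groups. Nor do they say that the 2 libraries of a group came from separate animals, so that every p-value reflects the spread among these few libraries and no more, and that spread may be technical.

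DMBA is a polycyclic aromatic hydrocarbon that skin enzymes convert into DNA-reactive metabolites, and in mouse skin it initiates tumours by mutating ras genes. TPA activates protein kinase C and, applied repeatedly, promotes the outgrowth of initiated cells as papillomas. Basal keratinocytes make keratins 5 and 14, suprabasal cells make keratins 1 and 10, granular cells build the cornified envelope, and keratins 6, 16 and 17 rise where epidermis is wounded or hyperplastic. Mouse epidermis also holds Langerhans cells and gamma-delta T cells that carry the dendritic epidermal receptor.

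Counts assigned to genes came to between 26300400 and 36002886 per library, and 19450 of 55487 genes had enough counts to be tested. Levels are in CPM, counts scaled to a library of 1000000 after TMM adjustment, and differences are fitted log2 fold changes ± SE, DMBA/TPA minus DMBA, with n = 2 libraries per group. A gene was called at an adjusted p under 0.05 in edgeR's quasi-likelihood F test, Benjamini-Hochberg adjusted over all genes tested. The check of the labelled tissue gave summed keratinocyte marker levels (Krt5, Krt14, Krt1, Krt10, Trp63 and Dsp) of 34800 and 36500 CPM in DMBA 1 and 2 and of 41100 and 52900 CPM in DMBA/TPA 1 and 2. DMBA/TPA 2 stood apart from DMBA/TPA 1: it had 16.4% of its records not aligned, against 9.82% in DMBA/TPA 1 and 3.8% to 7.47% elsewhere. Of 11732 genes at 5 CPM or more, 341 (2.91%) differed over 2-fold between the DMBA/TPA libraries, and 103 (0.878%) between the DMBA libraries.

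The comparison called 2834 genes (14.6% of those tested), 1731 higher (8.9%) and 1103 lower (5.67%) in DMBA/TPA, while the median log2 fold change over all genes tested was -0.02. Both DMBA/TPA libraries lay above both DMBA libraries for 29.5% of the genes tested and below both for 31.8%. With a change of at least 2-fold, 1023 genes (5.26%) were higher and 525 (2.7%) lower. Without TMM, on total counts, the split was 1402 higher and 1678 lower, so the balance of directions depended on the scaling. The number called was 4825 without DMBA/TPA 1, 1409 without DMBA/TPA 2, 650 without DMBA 1 and 443 without DMBA 2. Left with a lone library, a group was assumed to vary like the others. Of the genes called higher, 80.9% had the higher value of their group in DMBA/TPA 2. Without an acetone library of the DMBA/TPA set, which enters only the estimate of spread, 1848 and 1858 genes were called. The fit of the 4 treated libraries alone called 1816. Called genes given below with their own fold change and no remark kept their call under all 15 alternatives. Members named only within a count of their list need not have done so. The alternatives are the 8 single-library omissions and 7 changes of scaling, filter, model or tool.

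**Figure D1:**
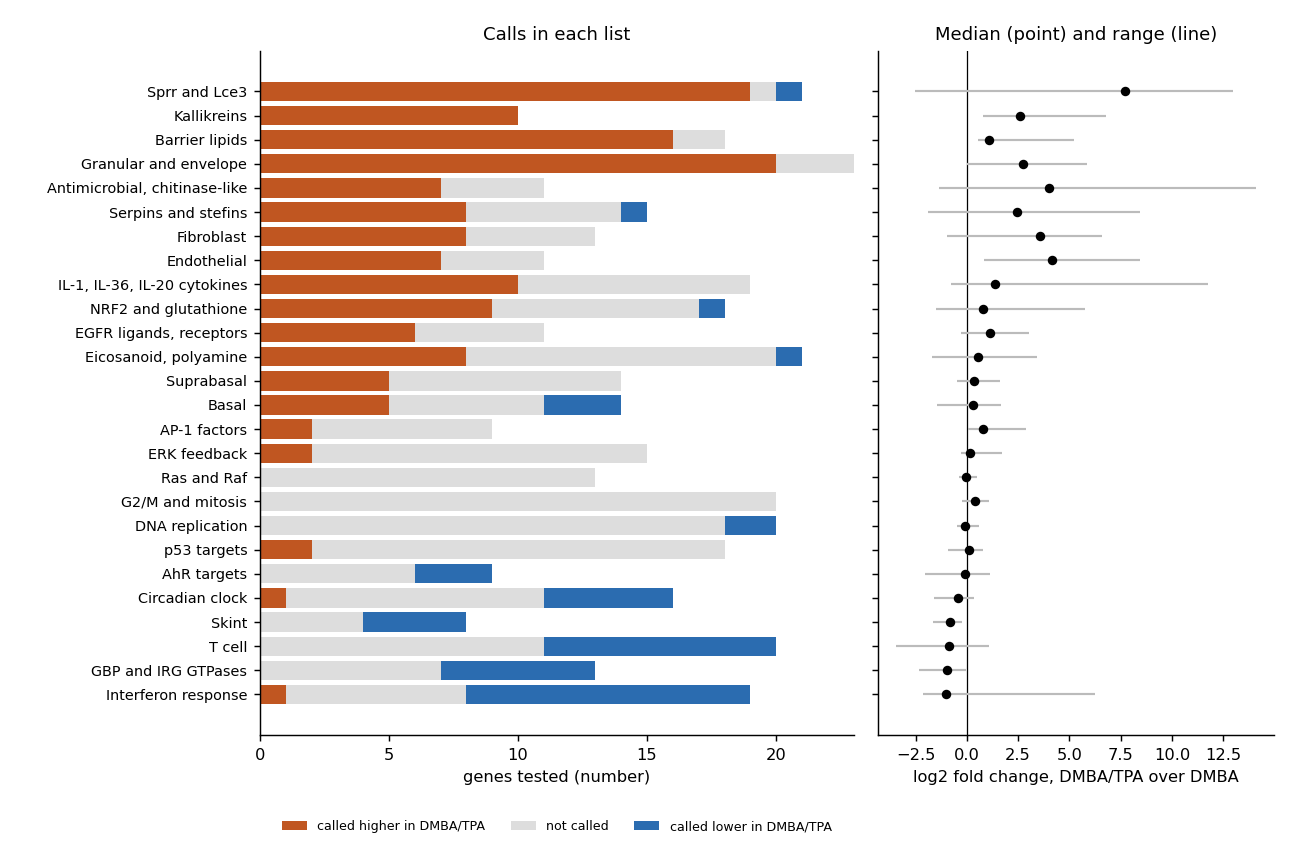
Genes called higher, lower or not at all in each list (left, number of genes tested) and the median and range of their log2 fold changes, DMBA/TPA minus DMBA (right). The Sprr and Lce3 list had 19 of 21 genes called higher, the kallikrein list 10 of 10, and the interferon response list 11 of 19 called lower.

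Of the 4 stress keratins, 3 were called higher in DMBA/TPA and Krt17 was called lower. Krt6b, a type II keratin of hyperproliferative epidermis (ENSMUSG00000023041, chr15:101676023-101680287, GRCm38), stood at 26.4 and 17.6 CPM in DMBA 1 and 2 and at 2693 and 7990 CPM in DMBA/TPA 1 and 2. Krt16, its type I counterpart in wounded and promoted skin (chr11:100246091-100248902), went from 295 and 192 CPM to 2882 and 9234 CPM. Both genes were far above DMBA in each DMBA/TPA library, with DMBA/TPA 2 about 3 times DMBA/TPA 1. The log2 fold change was 7.92 ± 0.82 for Krt6b (adjusted p = 0.00156), a fitted 243-fold difference, and 4.64 ± 0.53 for Krt16 (adjusted p = 0.00208). Krt6a, the near-identical neighbour of Krt6b, was at 1010 and 655 CPM in DMBA and 3099 and 9201 CPM in DMBA/TPA (2.88 ± 0.56, adjusted p = 0.0141). How reads shared by Krt6a and Krt6b were counted is not given, so their separate levels are uncertain. The Krt6a call was lost without DMBA 1 (0.0712) and DMBA 2 (0.127), against 1.01e-07 to 0.127 over all 15 alternatives.

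Krt17, the fourth member of that list and a keratin of hair follicles as well as of stressed epidermis, was lower in DMBA/TPA, at 1776 and 1691 CPM against 3535 and 2385 CPM in DMBA. Its log2 fold change was -0.77 ± 0.21 with an adjusted p of 0.0452, close to the threshold. The call was lost without Control DMBA 1 (0.0507), Control DMBA 2 (0.0503), DMBA 1 (0.249), DMBA 2 (0.0616), Control DMBA TPA 1 (0.0573), Control DMBA TPA 2 (0.0567), DMBA/TPA 1 (0.0639) and DMBA/TPA 2 (0.149), with the replicate block (0.0719) and in the fit of the 4 compared libraries (0.0721), against 0.000454 to 0.249 over all 15 alternatives. In the acetone libraries, Krt6b, Krt16 and Krt17 were each called lower in Control DMBA TPA than in Control DMBA, with log2 fold changes of -3.41 ± 0.72, -2.65 ± 0.49 and -1.11 ± 0.21. The difference between the treated and the acetone contrasts was 11.34 ± 1.08 for Krt6b (adjusted p = 0.00246) and 7.29 ± 0.72 for Krt16 (adjusted p = 0.00279), but 0.34 ± 0.30 for Krt17 (adjusted p = 0.459).

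Basal keratinocyte genes moved in both directions. Of 14 listed genes, 5 were called higher (among them Krt14, Itga3, Itga6 and Itgb1), 3 lower (Krt15, Col17a1 and Dst) and 6 not called. The higher calls numbered 1 without DMBA 1, 1 without DMBA 2, 8 without DMBA/TPA 1 and 1 without DMBA/TPA 2, and 1 without Control DMBA TPA 1 and 1 without Control DMBA TPA 2. The lower calls numbered 1 without DMBA 1, 0 without DMBA 2, 4 without DMBA/TPA 1 and 0 without DMBA/TPA 2, and 1 without Control DMBA TPA 1 and 1 without Control DMBA TPA 2. Col17a1, a hemidesmosomal collagen, was at 2515 and 2882 CPM in DMBA and 1843 and 1877 CPM in DMBA/TPA. Its log2 fold change was -0.54 ± 0.13 (adjusted p = 0.0286), and the call was lost without DMBA 1 (0.0886), DMBA 2 (0.225), Control DMBA TPA 1 (0.056), Control DMBA TPA 2 (0.0557) and DMBA/TPA 2 (0.0708) and in the fit of the 4 compared libraries (0.0678), against 0.000893 to 0.225 over all 15 alternatives.

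Krt15, a keratin of quiescent basal and bulge cells, was at 2135 and 3230 CPM in DMBA and at 1111 and 847 CPM in DMBA/TPA, so both DMBA/TPA libraries lay below both DMBA libraries, as they did for 31.8% of all genes tested. The log2 fold change was -1.45 ± 0.28 (adjusted p = 0.015), and the call was lost without DMBA 2 (0.117) and DMBA/TPA 2 (0.0706), against 3.01e-07 to 0.117 over all 15 alternatives. Krt5 and Krt14, the keratin pair of the basal layer, did not go together. Krt5 was at 8310 and 8680 CPM in DMBA and 6013 and 8059 CPM in DMBA/TPA (-0.27 ± 0.17, adjusted p = 0.305, not called). Krt14 was at 6835 and 6422 CPM in DMBA and 9930 and 20870 CPM in DMBA/TPA, the last value standing well above the other 3. Its log2 fold change of 1.22 ± 0.32 reached an adjusted p of 0.0401, and the call was lost without DMBA 1 (0.159), DMBA 2 (0.219), Control DMBA TPA 1 (0.0728), Control DMBA TPA 2 (0.0722) and DMBA/TPA 2 (0.134), with the replicate block (0.0586) and in the fit of the 4 compared libraries (0.0782), against 5.33e-05 to 0.219 over all 15 alternatives.

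Per kilobase of exon, the order of the keratins by group mean differed between the regimens, as a description. Among 19 keratin genes, Krt5 led in DMBA with a mean level of 3860 CPM per kb, followed by Krt14 at 3770 and Krt10 at 3590. In DMBA/TPA, Krt14 led at 8780 CPM per kb, followed by Krt10 at 4260, Krt16 at 3870 and Krt5 at 3200. Krt16 held place 10 in DMBA, at 156 CPM per kb. Single libraries did not all keep this order. In DMBA/TPA 1, Krt16 at 1840 CPM per kb lay below Krt5 at 2740. In DMBA/TPA 2, Krt16 at 5900 lay above Krt10 at 3890 and Krt5 at 3670. In DMBA 1, Krt14 at 3890 lay above Krt5 at 3780. As a share of all gene counts, Krt6a, Krt6b and Krt16 together took 0.135% and 0.0883% in DMBA 1 and 2 and 0.838% and 2.41% in DMBA/TPA 1 and 2.

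**Figure D2:**
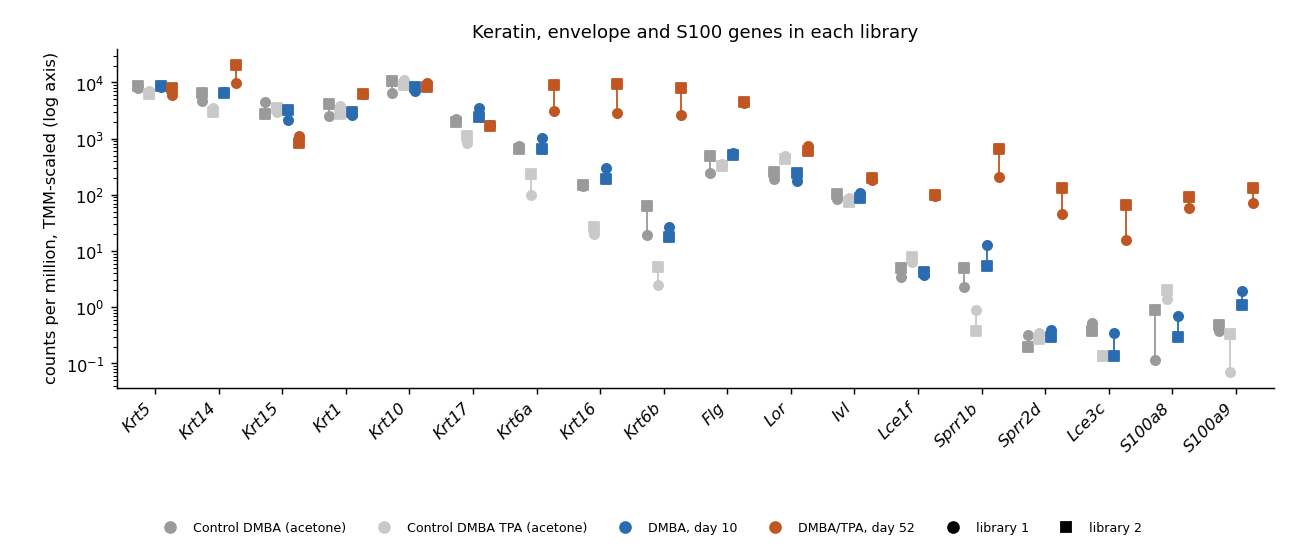
Level of keratin, envelope and S100 genes in each library (log axis, CPM on TMM-scaled library sizes), with circles for library 1, squares for library 2 and a line joining the libraries of a group. Krt6b, Sprr2d and Lce3c are above their DMBA level in both DMBA/TPA libraries. Krt5 lies slightly lower and Krt10 slightly higher in DMBA/TPA, and neither was called.

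Suprabasal genes were higher where they were called. Of 14 listed, 5 were called higher (Dsc1, Krt1, Dsg1b, Calm4 and Krtdap) and 9 were not called; the higher calls numbered 2 without DMBA 1, 1 without DMBA 2, 8 without DMBA/TPA 1 and 5 without DMBA/TPA 2. Dsc1, a desmosomal cadherin of the upper layers, went from 403 and 396 CPM to 774 and 718 CPM (0.90 ± 0.12, adjusted p = 0.00321). Krt1 was at 2621 and 2926 CPM in DMBA and 6304 and 6199 CPM in DMBA/TPA (1.17 ± 0.24, adjusted p = 0.0164), and its call was lost without DMBA 1 (0.114) and DMBA 2 (0.106), against 1.01e-06 to 0.114 over all 15 alternatives. Krt10, the partner of Krt1, was at 7034 and 8148 CPM and 9764 and 8220 CPM, with a log2 fold change of 0.24 ± 0.24 that was not called (adjusted p = 0.51). Dsc1 was also called higher between the acetone groups, by 0.83 ± 0.12 (adjusted p = 0.0105).

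Genes of the granular layer and the cornified envelope rose together. Of 23 tested, 20 were called higher and 3 not called (Evpl, Ppl and Tgm5), with a median log2 fold change of 2.75, and the higher calls numbered 17 without DMBA 1, 16 without DMBA 2, 19 without DMBA/TPA 1 and 20 without DMBA/TPA 2. Flg encodes filaggrin, which bundles keratin filaments in the cornified layer (ENSMUSG00000102439, chr3:93273523-93293686). It was at 553 and 516 CPM in DMBA 1 and 2 and at 4341 and 4501 CPM in DMBA/TPA 1 and 2, a log2 fold change of 3.05 ± 0.30 (adjusted p = 0.00132). The groups were far apart and the libraries within each nearly level. Lce1f, a late cornified envelope gene, rose from 3.81 and 4.32 CPM to 95.9 and 98.2 CPM (4.57 ± 0.20, adjusted p = 8.37e-05).

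The same list held enzymes and scaffold proteins of cornification. Asprv1, the protease that processes filaggrin, rose from 362 and 342 CPM to 1549 and 1758 CPM (2.23 ± 0.14, adjusted p = 0.000194). Lor, loricrin, a main envelope protein, rose from 177 and 248 CPM to 732 and 597 CPM (1.65 ± 0.20, adjusted p = 0.00282). Ivl, involucrin, an early envelope scaffold, was at 109.7 and 88.2 CPM and 182 and 200.2 CPM (0.95 ± 0.15, adjusted p = 0.00732). In all 3 genes both DMBA/TPA libraries were above both DMBA libraries, as for 29.5% of all genes tested. The Ivl call was lost without DMBA 2 (0.0753), against 5.35e-07 to 0.0753 over all 15 alternatives. Lor was also called higher in the acetone contrast, by 1.04 ± 0.20 (adjusted p = 0.0255), and its difference of contrasts was not called (0.60 ± 0.28, adjusted p = 0.176). For Flg that difference was 3.18 ± 0.40 (adjusted p = 0.00505), and over the list 16 of 23 differences were called higher.

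The small proline-rich genes and the Lce3 genes, cross-linked envelope precursors made in wounded and psoriasis-like epidermis, had the largest list median of the comparison among lists of at least 5 tested genes. Of 21 tested, 19 were called higher, 1 lower (Sprr4) and 1 not called (Sprr1a). The higher calls numbered 15 without DMBA 1, 10 without DMBA 2, 20 without DMBA/TPA 1 and 17 without DMBA/TPA 2. The median log2 fold change was 7.73, or 7.47 with the 5 genes that had no count in a group set at their bound. The copies of the Sprr2 and Lce3 families are alike in sequence, so the share of each is uncertain. The windows of Sprr1b and Sprr2d, from 250 bases before to 50 bases after the start (RefSeq, GRCm38.p6), are shown because these genes rose and both windows hold the AP-1 motif TGANTCA, in capitals. Sprr1b lies on the minus strand (chr3:92438730-92439029), with the motif 111 bases before the start. Sprr2d lies on the plus strand (chr3:92338890-92339189), with the motif 193 bases before it.
Sprr1b: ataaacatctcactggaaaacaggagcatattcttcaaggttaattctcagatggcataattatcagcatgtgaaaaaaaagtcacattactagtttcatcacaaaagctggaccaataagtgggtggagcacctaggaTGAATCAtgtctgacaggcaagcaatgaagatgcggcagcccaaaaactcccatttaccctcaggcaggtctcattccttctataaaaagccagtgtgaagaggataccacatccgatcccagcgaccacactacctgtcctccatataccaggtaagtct
Sprr2d: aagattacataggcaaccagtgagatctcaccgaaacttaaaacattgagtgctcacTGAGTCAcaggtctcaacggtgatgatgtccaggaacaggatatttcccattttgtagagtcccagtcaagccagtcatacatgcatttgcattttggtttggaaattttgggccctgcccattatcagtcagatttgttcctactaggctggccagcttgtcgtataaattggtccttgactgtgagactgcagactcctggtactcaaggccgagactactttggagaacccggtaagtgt

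The motif was searched as the letters TGANTCA on both strands, and a match describes the window without showing that a factor bound there. It was present in 9 of the 19 windows of this list (47.4%), against 7.81% of all 32851 windows and 13.2% of the windows of genes called at least 2-fold higher. It was present in 5.89% of the windows of genes tested and 7.09% of those of genes called at least 2-fold lower. Other lists with higher calls ranged from 0% of windows (kallikrein, barrier lipid and antimicrobial among them) to 50% (metalloproteinase). The granular and envelope list had it in 22.7% and the serpin and stefin list in 38.5%. The Langerhans cell and antigen presentation list, described below, had it in 45.5%, and the interferon response list in 25%. A link between the motif and the direction of change was not tested. Sprr2d, with its motif shown above, had 0.388 and 0.299 CPM in DMBA and 46.2 and 132 CPM in DMBA/TPA (8.02 ± 0.60, adjusted p = 0.000427). Sprr1b had 13.1 and 5.33 CPM and 208 and 663 CPM (5.57 ± 0.70, adjusted p = 0.00286). Lce3c had 0.355 and 0.136 CPM and 15.5 and 67.4 CPM (7.42 ± 0.82, adjusted p = 0.00176). All 3 were near the detection limit or low in DMBA and higher in DMBA/TPA 2 than in DMBA/TPA 1.

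Sprr2i had no count in either DMBA library and 13.8 and 50.7 CPM in DMBA/TPA, at least 729-fold higher when DMBA is set at a floor of 3 counts in all (adjusted p = 0.00728). Its call was lost without DMBA 2 (0.0511), against 6.98e-12 to 0.0511 over all 15 alternatives. Sprr4, a member used after ultraviolet exposure, ran the other way, from 98.7 and 66.1 CPM in DMBA to 15.9 and 12.7 CPM in DMBA/TPA (-2.53 ± 0.22, adjusted p = 0.000912). Sprr4 was called lower in the acetone contrast too, at -3.20 ± 0.23 (adjusted p = 0.00188), and the difference of contrasts was not called (0.67 ± 0.31, adjusted p = 0.173). Sprr1a was at 431 and 275 CPM and 423 and 1056 CPM, so that DMBA 1 lay above DMBA/TPA 1 (1.07 ± 0.37, adjusted p = 0.0922).

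By position, these families share the epidermal differentiation complex on chromosome 3 (chr3:90511034-93564643, GRCm38, from S100a1 to S100a10). Of the 73 genes tested in it, 53 (72.6%) were called higher, against 8.9% of all genes, and 1, Sprr4, was called lower. Of 11 listed S100 genes, 5 were called higher and 6 not called, at a median of 0.43 and a range of -0.59 to 7.26. The fit of the compared libraries called 2 higher. The S100 genes of the complex include S100a8 and S100a9, subunits of calprotectin, an antimicrobial protein of inflamed keratinocytes and neutrophils. S100a8 went from 0.711 and 0.299 CPM to 58.8 and 92.8 CPM (7.26 ± 0.60, adjusted p = 0.000688). S100a9 went from 1.94 and 1.09 CPM to 71.9 and 133 CPM (6.09 ± 0.43, adjusted p = 0.000285). Both were scarce in DMBA and abundant in both DMBA/TPA libraries. Summed neutrophil markers moved with them, from 1.97 and 0.815 CPM to 13 and 19.2 CPM, with Cxcr2 (3.51 ± 0.45, adjusted p = 0.00306) and Csf3r tested and Ly6g, the defining marker, at 0 in both groups. The part of neutrophils in the S100 result was not tested.

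Among proteases of desquamation, all 10 listed kallikrein genes were called higher, at a median of 2.59. By position, the kallikrein cluster from Klk1 to Klk14 held 12 tested genes, 11 called higher and 1 not called. The fit of the compared libraries called 7 of the 10 listed genes. Their median was 2.78 without DMBA 1, 2.43 without DMBA 2, 3.13 without DMBA/TPA 1 and 1.85 without DMBA/TPA 2. Klk13 rose from 3.33 and 2.64 CPM to 197 and 455 CPM (6.78 ± 0.50, adjusted p = 0.000387), and DMBA/TPA 2 was higher than DMBA/TPA 1 for all 10 genes. Klk5, the protease that starts the kallikrein cascade in the cornified layer, went from 94.2 and 102 CPM to 181 and 194 CPM (0.93 ± 0.12, adjusted p = 0.00371). Of 15 serpin and stefin genes, which inhibit serine and cysteine proteases, 8 were called higher and 1 lower. Stfa2, a mouse stefin A, rose from 0.291 and 0.163 CPM to 61.1 and 97.1 CPM (8.45 ± 0.59, adjusted p = 0.000285), and Csta1 rose from 10.2 and 10.1 CPM to 72.7 and 79.1 CPM (2.90 ± 0.17, adjusted p = 0.000194).

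Barrier lipid genes rose too, at a median of 1.07, with 16 of 18 called higher and 2 not called (Elovl6 and Fa2h). The higher calls numbered 8 without DMBA 1, 8 without DMBA 2, 16 without DMBA/TPA 1 and 16 without DMBA/TPA 2. Abca12, the transporter that loads lamellar granules, was at 409 and 406 CPM in DMBA and at 848 and 840.1 CPM in DMBA/TPA, with little spread in either group (1.05 ± 0.11, adjusted p = 0.00164). Ugcg, which makes glucosylceramide, rose from 56.4 and 51.4 CPM to 158 and 213 CPM (1.78 ± 0.15, adjusted p = 0.000715), and Smpd1, acid sphingomyelinase, from 41.3 and 41.8 CPM to 121 and 171 CPM (1.81 ± 0.16, adjusted p = 0.00104). Degs2, which makes phytoceramide, rose from 1.23 and 1.06 CPM to 25.8 and 59.8 CPM (5.22 ± 0.44, adjusted p = 0.000696). Abca12 and Ugcg were also called higher in the acetone contrast, by 0.81 ± 0.11 and 0.78 ± 0.15 (adjusted p = 0.0105 and 0.0242), and the difference of contrasts was called for Ugcg (1.00 ± 0.21, adjusted p = 0.0232).

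The lipoxygenases split. Alox12b and Aloxe3, which act in turn on barrier ceramides, rose by 1.77 ± 0.21 and 1.56 ± 0.18 (adjusted p = 0.00237 and 0.00215). Alox8, known in mouse skin as a phorbol ester-inducible lipoxygenase, rose from 6.72 and 4.51 CPM to 45.9 and 43.4 CPM (2.99 ± 0.34, adjusted p = 0.00199). Alox12e, the epidermal 12-lipoxygenase, fell from 1517 and 1457 CPM to 556 and 364 CPM (-1.69 ± 0.18, adjusted p = 0.00163). Alox12e was below both DMBA libraries in both DMBA/TPA libraries, as were 31.8% of all genes tested. Its acetone levels of 847 and 821 CPM in Control DMBA and 610.2 and 606 CPM in Control DMBA TPA lay below those of DMBA.

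Markers of TPA action in skin were higher but less firmly called. Odc1, ornithine decarboxylase, the entry enzyme of polyamine synthesis, was at 27.2 and 21.7 CPM in DMBA and 74.3 and 282 CPM in DMBA/TPA (2.87 ± 0.54, adjusted p = 0.013). Ptgs2, the inducible cyclooxygenase, was at 3.04 and 2.47 CPM and 7.43 and 19 CPM (2.26 ± 0.42, adjusted p = 0.0124). For both genes DMBA/TPA 2 was well above DMBA/TPA 1. The Odc1 call was lost without DMBA 1 (0.0787) and DMBA 2 (0.118), against 9.71e-08 to 0.118 over all 15 alternatives. The Ptgs2 call was lost without DMBA 1 (0.072) and DMBA 2 (0.113), against 5.5e-07 to 0.113 over all 15 alternatives.

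Among ligands and receptors of the epidermal growth factor family, 6 of 11 were called higher, all of them ligands, and 5 were not called. The calls numbered 5 without DMBA 1, 3 without DMBA 2, 6 without DMBA/TPA 1 and 4 without DMBA/TPA 2. Ereg, epiregulin, rose from 13.3 and 10.8 CPM to 49.1 and 66.5 CPM (2.27 ± 0.17, adjusted p = 0.000463). Tgfa, transforming growth factor alpha, rose from 58.6 and 49.4 CPM to 136 and 178 CPM (1.54 ± 0.15, adjusted p = 0.00138). Both ligands were higher in each DMBA/TPA library than in either DMBA library, as were 29.5% of all genes tested. Egfr, their receptor, was at 304 and 311 CPM and 276 and 243 CPM and was not called (-0.24 ± 0.11, adjusted p = 0.172). Ereg was also called higher in the acetone contrast, by 1.42 ± 0.17 (adjusted p = 0.00649), and its difference of contrasts was not called (adjusted p = 0.053).

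Downstream of the receptor, the AP-1 transcription factor list had a median log2 fold change of 0.79. Over all genes tested, 8.9% were called higher. Of 9 AP-1 genes, 2 were called higher, Junb and Fosl1, and these calls numbered 1 without DMBA 1, 0 without DMBA 2, 2 without DMBA/TPA 1 and 0 without DMBA/TPA 2, and 1 without Control DMBA TPA 1 and 1 without Control DMBA TPA 2. Fosl1, a Fos family member raised in skin tumours, was at 5.56 and 0.979 CPM in DMBA and 15.5 and 32.4 CPM in DMBA/TPA, the DMBA libraries themselves differing more than 5-fold (2.89 ± 0.74, adjusted p = 0.0369). Its call was lost without DMBA 2 (0.141), Control DMBA TPA 1 (0.0669), Control DMBA TPA 2 (0.0665) and DMBA/TPA 2 (0.129), with the replicate block (0.0713) and in the fit of the 4 compared libraries (0.0666), against 2.85e-05 to 0.141 over all 15 alternatives. None of 13 ras and raf genes was called in the edgeR fit of all 8 libraries with TMM or in limma voom. In that edgeR fit 4 had an unadjusted p under 0.05, against 6235 of all 19450 genes tested. In DESeq2 2 were called higher, without DMBA/TPA 1 also 2, with no low-count filter 1, and on total counts 1 was called lower. Hras, the gene most often mutated by DMBA in mouse skin, was at 141 and 136 CPM and 126 and 166 CPM (0.07 ± 0.13, adjusted p = 0.737), and the sign of its difference changed on total counts and without DMBA/TPA 2. Expression levels do not show whether it was mutated.

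Cell cycle genes were described by lists of DNA replication and of mitosis. Of 20 DNA replication genes, 0 were called higher and 2 lower, at a median of -0.09, against 8.9% and 5.67% of all genes tested. In DESeq2 1 was called higher and 1 lower, and the fit of the compared libraries called 0 in either direction. On total counts 3 were called lower, and with no low-count filter 1 was called higher. Without DMBA/TPA 1 the median of the list was 0.12, so its sign depended on that library. None of 20 genes of G2 and mitosis was called in the edgeR fit of all 8 libraries with TMM or in limma voom, at a median of 0.39. In that edgeR fit 6 had an unadjusted p under 0.05, against 6235 of all 19450 genes tested. DMBA/TPA 2 was above DMBA/TPA 1 for all 20, and 5 were called higher without DMBA/TPA 1, 4 in DESeq2 and 4 with no low-count filter. Mki67, a marker of cycling cells, was at 233 and 192 CPM in DMBA and 204 and 247 CPM in DMBA/TPA (0.08 ± 0.21, adjusted p = 0.816), overlapping between the groups. Both groups were above the acetone values of 127 and 124 CPM in Control DMBA and 119.8 and 73.5 CPM in Control DMBA TPA. Of 18 p53 target genes, 2 were called higher and 0 lower, at a median of 0.08, against the same shares of all genes tested. The fit of the compared libraries called 0 of them. In DESeq2 4 were called higher and 1 lower, and with no low-count filter 4 higher and 2 lower. Without DMBA/TPA 1 their median was 0.16. Cdkn1a, the p53 target that encodes the cell cycle inhibitor p21, was at 284 and 289 CPM and 299.7 and 342 CPM and was not called (0.16 ± 0.11, adjusted p = 0.363). A p that misses the threshold does not show that levels were equal.

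Of 19 epidermal cytokine and receptor genes, of the IL-1 family and others, 10 were called higher and 9 not called, at a median of 1.38, and the calls numbered 8 without DMBA 1, 6 without DMBA 2, 11 without DMBA/TPA 1 and 10 without DMBA/TPA 2. Il1f9, IL-36 gamma, a keratinocyte alarm cytokine, rose from 24.6 and 21.9 CPM to 94.7 and 112 CPM (2.15 ± 0.21, adjusted p = 0.00131). Il33, an alarmin released from damaged epithelium, rose from 8.3 and 11.7 CPM to 59 and 94.5 CPM (2.94 ± 0.31, adjusted p = 0.00156). Il1a, stored in keratinocytes, rose from 2.04 and 1.36 CPM to 10.3 and 9.05 CPM (2.51 ± 0.25, adjusted p = 0.00135). Each was above both DMBA libraries in both DMBA/TPA libraries, as were 29.5% of all genes tested. The DMBA values of Il33 lay below those of the acetone libraries, which had 20 and 18.7 CPM in Control DMBA and 39.6 and 24.2 CPM in Control DMBA TPA.

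Antimicrobial and chitinase-like genes held the largest fitted change of the comparison. Chil4, a chitinase-like protein of mouse type 2 inflammation (ENSMUSG00000063779, chr3:106201490-106219507), had 1 count in DMBA and 16673 in DMBA/TPA, at 222 and 432 CPM in its 2 libraries. The ratio of CPM was 22200, with an exact 95% counting interval of 3980 to 875000 that covers counting error only (adjusted p = 0.000194). Slpi, a protease inhibitor with antimicrobial action, rose from 1.36 and 1.17 CPM to 98 and 325 CPM (7.39 ± 0.62, adjusted p = 0.000696). Of the 11 listed genes tested, 7 were called higher and 4 not called, and the calls numbered 4 without DMBA 1, 3 without DMBA 2, 7 without DMBA/TPA 1 and 4 without DMBA/TPA 2.

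Matrix metalloproteinases were mostly higher where called. Of 14 metalloproteinase, inhibitor and plasminogen activator genes, 6 were called higher and 2 lower (Timp2 and Timp3), and the higher calls numbered 3 without DMBA 1, 1 without DMBA 2, 8 without DMBA/TPA 1 and 4 without DMBA/TPA 2. The lower calls numbered 0 without DMBA 1, 0 without DMBA 2, 2 without DMBA/TPA 1 and 0 without DMBA/TPA 2. Mmp9, a gelatinase, rose from 4.23 and 6.47 CPM to 30.5 and 41.3 CPM (2.74 ± 0.38, adjusted p = 0.00441). Mmp13, a collagenase known as an AP-1 target, was at 0.162 and 0.136 CPM and 9.87 and 11.2 CPM (6.12 ± 0.95, adjusted p = 0.00678). Its call was lost without DMBA 1 (0.0624) and DMBA 2 (0.0822), against 1.99e-08 to 0.0822 over all 15 alternatives. The window of Mmp13 (chr9:7272264-7272563, plus strand, RefSeq, GRCm38.p6) is shown because it holds TGANTCA 35 bases before the start. The motif was present in 6 of 12 windows of this list (50%), against 7.81% of all windows.
Mmp13: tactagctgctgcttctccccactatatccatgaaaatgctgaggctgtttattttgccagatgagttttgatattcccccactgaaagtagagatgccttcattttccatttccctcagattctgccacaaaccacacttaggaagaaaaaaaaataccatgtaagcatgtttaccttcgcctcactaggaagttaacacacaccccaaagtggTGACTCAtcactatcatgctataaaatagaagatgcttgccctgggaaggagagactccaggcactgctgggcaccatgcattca

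Of 18 glutathione and NRF2-linked genes of the oxidative stress response, 9 were called higher, 1 lower and 8 not called, and the higher calls numbered 4 without DMBA 1, 3 without DMBA 2, 9 without DMBA/TPA 1 and 7 without DMBA/TPA 2. Hmox1, heme oxygenase 1, rose from 9.76 and 11.7 CPM to 55.5 and 72.6 CPM (2.58 ± 0.18, adjusted p = 0.000283). Slc7a11, the cystine importer, rose from 1.81 and 0.761 CPM to 18.1 and 27.4 CPM (4.16 ± 0.42, adjusted p = 0.0014). Aldh3a1, an aldehyde dehydrogenase that also belongs to the aryl hydrocarbon receptor list, fell from 132 and 134 CPM to 51 and 42.1 CPM (-1.51 ± 0.13, adjusted p = 0.000739). Hmox1 was above its DMBA level in both DMBA/TPA libraries and Aldh3a1 below it in both, as were 29.5% and 31.8% of all genes tested.

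The aryl hydrocarbon receptor, which binds DMBA, and its targets had 3 of 9 genes called lower and 6 not called, and the lower calls numbered 1 without DMBA 1, 1 without DMBA 2, 3 without DMBA/TPA 1 and 2 without DMBA/TPA 2. Cyp1a1, the receptor's most inducible target and an enzyme that activates DMBA, was at 4.78 and 3.89 CPM in DMBA and 13.3 and 5.64 CPM in DMBA/TPA and was not called (1.12 ± 0.40, adjusted p = 0.0981). Its DMBA values lay below the acetone values of 10.2 and 17.3 CPM in Control DMBA. Cyp1b1, the other main DMBA-activating P450 of skin, was at 82.3 and 84.8 CPM and 27.1 and 12.8 CPM (-2.06 ± 0.36, adjusted p = 0.00974). The call was lost without DMBA 1 (0.0525) and DMBA 2 (0.0675), against 1.61e-09 to 0.0675 over all 15 alternatives, and Cyp1b1 was called lower in the acetone contrast too, at -1.71 ± 0.35 (adjusted p = 0.0306).

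Interferon-stimulated genes were mostly lower in DMBA/TPA than in DMBA where they were called. Interferons act on response elements whose core repeats the letters GAAA. Of 19 interferon response genes tested, 11 were called lower, 1 higher (Oasl1) and 7 not called, at a median of -1.01. The lower calls numbered 2 without DMBA 1, 2 without DMBA 2, 9 without DMBA/TPA 1 and 5 without DMBA/TPA 2. Of 13 interferon-inducible GTPase genes, 6 were called lower and 7 not called, at a median of -0.98, and these calls numbered 4 without DMBA 1, 0 without DMBA 2, 6 without DMBA/TPA 1 and 5 without DMBA/TPA 2. In the acetone contrast the medians of the lists were 0.05 and 0.37.

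Oasl2, an interferon-induced antiviral gene of the OAS family, was at 21.5 and 22.2 CPM in DMBA and fell to 4.72 and 6.03 CPM in DMBA/TPA. All 4 acetone libraries were lower still, with 1.52 and 2.91 CPM in Control DMBA and 2.62 and 1.95 CPM in Control DMBA TPA. The log2 fold change was -2.02 ± 0.29 (adjusted p = 0.00512), and the difference from the acetone contrast was -2.06 ± 0.42 (adjusted p = 0.0227). Stat2 fell from 71.5 and 79 CPM to 42.1 and 40 CPM (-0.87 ± 0.12, adjusted p = 0.00413), and the acetone libraries had 35.4 and 40 CPM in Control DMBA and 47.9 and 41.1 CPM in Control DMBA TPA. The DMBA/TPA values of Stat2 lay within the acetone values. Irgm1, an immunity-related GTPase, was at 16.7 and 18.8 CPM and 7.67 and 7.75 CPM (-1.20 ± 0.17, adjusted p = 0.00471), and its call was lost without DMBA 2 (0.0557), against 1.8e-06 to 0.0557 over all 15 alternatives.

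Isg15, a ubiquitin-like interferon product, was at 6.79 and 7.37 CPM in DMBA and 3.97 and 2.55 CPM in DMBA/TPA, both above the acetone range of 1.08 to 1.48 CPM. The log2 fold change was -1.12 ± 0.27 (adjusted p = 0.0319), and the call was lost without DMBA 1 (0.117), DMBA 2 (0.18), Control DMBA TPA 2 (0.05) and DMBA/TPA 2 (0.123), with the replicate block (0.054) and in the fit of the 4 compared libraries (0.0609), against 0.0068 to 0.18 over all 15 alternatives. Oasl1, the single gene of the list called higher, was at 0.0646 and 0.0544 CPM and 2.48 and 6.97 CPM (6.23 ± 0.88, adjusted p = 0.00469), and its call was lost without DMBA 2 (0.0641), against 9.87e-09 to 0.0641 over all 15 alternatives. The windows of Isg15 (chr4:156200769-156201068, minus strand) and Gbp7 (chr3:142530086-142530385, plus strand) are shown because they hold the core of the interferon element, GAAA followed after any 2 bases by GAAA again, in capitals. Isg15 has 3 overlapping matches from 78 to 66 bases before the start, and the Gbp7 match, 53 bases before it, reads on the opposite strand.
Isg15: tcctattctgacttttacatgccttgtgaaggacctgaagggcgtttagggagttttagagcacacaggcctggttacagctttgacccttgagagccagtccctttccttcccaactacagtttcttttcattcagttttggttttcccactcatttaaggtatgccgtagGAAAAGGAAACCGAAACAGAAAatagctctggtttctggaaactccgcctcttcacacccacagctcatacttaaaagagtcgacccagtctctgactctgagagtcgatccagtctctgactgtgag
Gbp7: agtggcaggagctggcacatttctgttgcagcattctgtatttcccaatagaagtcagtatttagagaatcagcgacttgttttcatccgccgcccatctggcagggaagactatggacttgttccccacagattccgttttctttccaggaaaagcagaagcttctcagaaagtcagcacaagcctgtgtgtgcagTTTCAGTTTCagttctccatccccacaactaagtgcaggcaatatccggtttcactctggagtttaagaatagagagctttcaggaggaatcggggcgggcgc

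Searched on both strands, this core was present in 10 of 16 windows of the interferon list (62.5%) and 8 of 10 windows of the GTPase list (80%), against 3.44% of all windows. Windows of genes called at least 2-fold lower held it in 6.64% and those of genes called at least 2-fold higher in 2.88%. Gbp7, a guanylate-binding protein whose window is shown, was at 10.1 and 13 CPM in DMBA and 5.74 and 5.99 CPM in DMBA/TPA (-0.98 ± 0.22, adjusted p = 0.0224). Its call was lost without DMBA 1 (0.0616), DMBA 2 (0.173) and DMBA/TPA 2 (0.0676), against 0.00351 to 0.173 over all 15 alternatives.

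**Figure D3:**
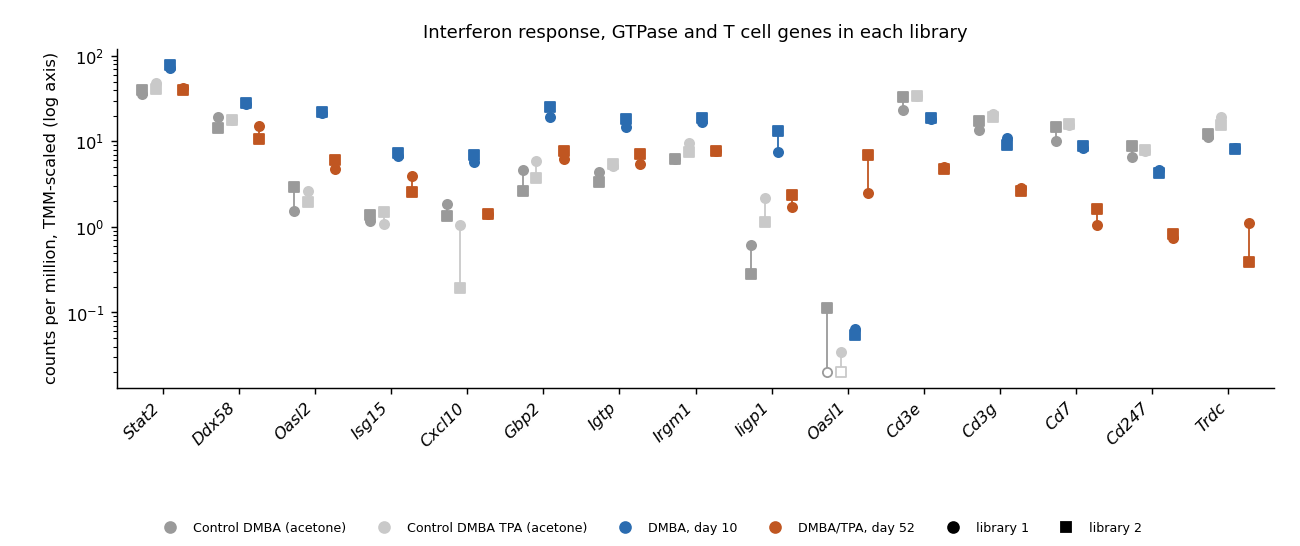
Level of interferon response, GTPase and T cell genes in each library (log axis, CPM on TMM-scaled library sizes), with circles for library 1, squares for library 2, lines joining the libraries of a group and open symbols for libraries without a count. Oasl2 is highest in the 2 DMBA libraries, and Cd3e, Cd7 and Trdc are lowest in the 2 DMBA/TPA libraries.

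T cell genes were lower in DMBA/TPA than in DMBA where they were called. Of 20 tested, 9 were called lower and 11 not called, at a median of -0.85, and the lower calls numbered 5 without DMBA 1, 5 without DMBA 2, 8 without DMBA/TPA 1 and 7 without DMBA/TPA 2. Cd3e, a chain of the T cell receptor complex, fell from 18.3 and 18.9 CPM to 4.96 and 4.78 CPM (-1.93 ± 0.18, adjusted p = 0.00116). Trdc, the constant region of the delta chain, fell from 8.27 and 8.05 CPM to 1.1 and 0.392 CPM (-3.44 ± 0.35, adjusted p = 0.00152). The acetone libraries had 23.3 and 33.2 CPM of Cd3e in Control DMBA and 34.2 and 33.9 CPM in Control DMBA TPA. In bulk tissue, fewer T cells and less RNA per T cell cannot be told apart.

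The summed level of the T cell markers was 44.1 and 42 CPM in DMBA and 11.2 and 10.6 CPM in DMBA/TPA, with all 5 tested markers called lower. It was 54.7 and 72.5 CPM in Control DMBA and 81.7 and 76.3 CPM in Control DMBA TPA. For Cd3e the difference from the acetone contrast was -2.20 ± 0.24 (adjusted p = 0.00373). Skint1, a keratinocyte protein needed for the maturation of mouse dendritic epidermal T cells, was at 87.8 and 74.3 CPM and 46.8 and 29.8 CPM (-1.08 ± 0.19, adjusted p = 0.0111). Its call was lost without DMBA 1 (0.0753) and DMBA 2 (0.0554), against 4.44e-06 to 0.0753 over all 15 alternatives. Of 8 Skint genes, 4 were called lower, and the lower calls numbered 0 without DMBA 1, 0 without DMBA 2, 7 without DMBA/TPA 1 and 2 without DMBA/TPA 2.

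The Langerhans cell and antigen presentation list had none of 15 genes called in the edgeR fit of all 8 libraries with TMM or in limma voom. In that edgeR fit 3 had an unadjusted p under 0.05, against 6235 of all 19450 genes tested. In DESeq2, on total counts, with no low-count filter, with the replicate block, without Control DMBA 1, without Control DMBA 2 and without DMBA/TPA 1, 2 were called lower, and without DMBA/TPA 1 another 1 was called higher. Cd207, langerin, which defines Langerhans cells, was at 23.9 and 22.6 CPM in DMBA and 22.8 and 23.2 CPM in DMBA/TPA (-0.01 ± 0.19, adjusted p = 0.972). Summed Langerhans markers were 699 and 584 CPM in DMBA and 584 and 637 CPM in DMBA/TPA. Whether the T cell and Langerhans markers differed in their response was not tested. Chemokines split, with 2 called higher (Ccl8 and Cxcl3) and 5 lower of 13. The higher calls numbered 1 without DMBA 1, 0 without DMBA 2, 3 without DMBA/TPA 1 and 1 without DMBA/TPA 2, and the lower calls 2 without DMBA 1, 4 without DMBA 2, 5 without DMBA/TPA 1 and 4 without DMBA/TPA 2. Ccl27a, the keratinocyte chemokine that draws T cells to skin, fell from 117 and 98.6 CPM to 31.1 and 20.7 CPM (-2.05 ± 0.21, adjusted p = 0.00156). Cxcl12, a chemokine that retains and guides leukocytes, fell from 135 and 104 CPM to 26.3 and 19.2 CPM (-2.39 ± 0.29, adjusted p = 0.00256). Cxcl12 was also called lower in the acetone contrast, at -1.88 ± 0.28 (adjusted p = 0.0123).

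**Figure D4:**
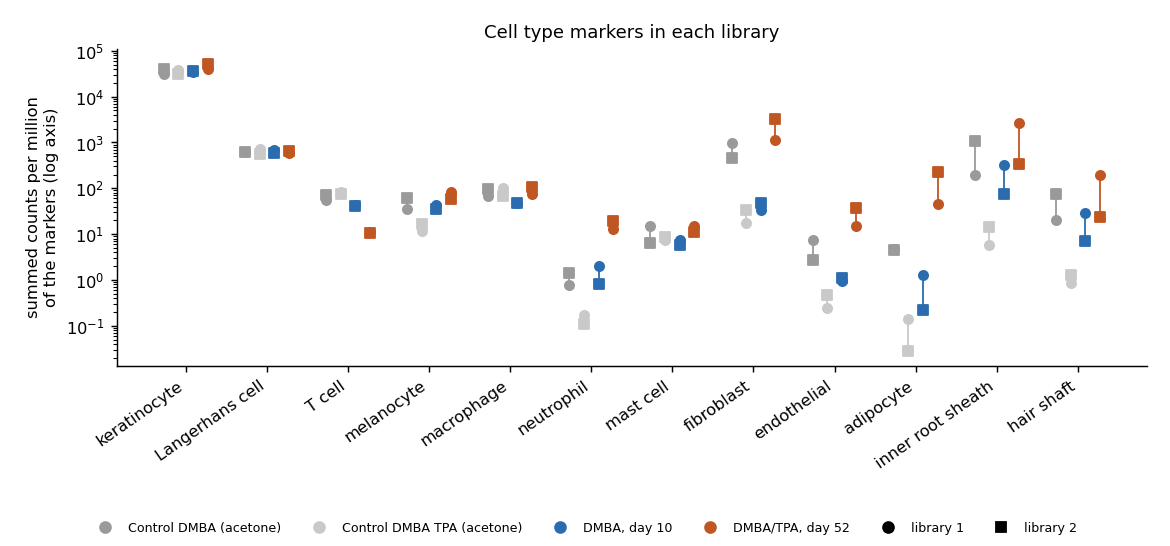
Summed level of cell type markers in each library (log axis, CPM), with circles for library 1, squares for library 2 and lines joining the libraries of a group. Fibroblast markers were at 32.8 and 47.5 CPM in DMBA and 1130 and 3220 CPM in DMBA/TPA, and T cell markers at 44.1 and 42 CPM and 11.2 and 10.6 CPM.

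Fibroblast markers were far higher in DMBA/TPA, although the epidermis had been separated. The 6 fibroblast markers summed to 32.8 and 47.5 CPM in DMBA 1 and 2 and to 1130 and 3220 CPM in DMBA/TPA 1 and 2, with 5 of the 6 called higher. Of the 13 genes of the fibroblast list, 8 were called higher, and these calls numbered 5 without DMBA 1, 4 without DMBA 2, 10 without DMBA/TPA 1 and 8 without DMBA/TPA 2. Col3a1, a fibrillar collagen of dermal fibroblasts, rose from 4.04 and 3.15 CPM to 215 and 479 CPM (6.60 ± 0.64, adjusted p = 0.00131). Col1a1, type I collagen, rose from 18.5 and 33.6 CPM to 623 and 1993 CPM (5.64 ± 0.67, adjusted p = 0.00237). The acetone contrast ran the other way: Control DMBA had 984 and 453 CPM of summed fibroblast markers and Control DMBA TPA 17.7 and 33.1 CPM. For Col3a1 it was -7.67 ± 0.70 (adjusted p = 0.00319).

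Markers of other dermal cells did not all go one way, but most of those called were higher. Summed endothelial markers went from 0.937 and 1.11 CPM to 15.1 and 37.2 CPM, with 4 of 4 called higher and Emcn at 0 in DMBA. The 11 genes of the endothelial list gave 7 higher calls, which numbered 3 without DMBA 1, 1 without DMBA 2, 8 without DMBA/TPA 1 and 6 without DMBA/TPA 2. The adipocyte markers summed to 1.29 and 0.217 CPM in DMBA and 46.3 and 231 CPM in DMBA/TPA, through Fabp4 (7.88 ± 0.93, adjusted p = 0.0023), while Adipoq, Plin1 and Lep were at 0 in DMBA/TPA. Mast cell markers summed to 7.37 and 5.71 CPM in DMBA and 15.3 and 11.4 CPM in DMBA/TPA, with 1 of 5 called higher. Macrophage markers summed to 48.6 and 48.1 CPM in DMBA and 73.6 and 105 CPM in DMBA/TPA, with 2 called higher and 1, Adgre1, lower. Of 13 genes of the macrophage and monocyte list, 7 were called higher and 1 lower, at a median of 1.73. Without DMBA/TPA 2 that median was 1.12. The Adgre1 call was lost without DMBA 1 (0.0508) and DMBA 2 (0.0734), against 0.000153 to 0.0734 over all 15 alternatives. Skeletal muscle markers summed to 2.23 and 2.96 CPM in DMBA and 1.89 and 1.72 CPM in DMBA/TPA. None of the 3 tested was called in the edgeR fit of all 8 libraries with TMM, in DESeq2 or in limma voom. With no low-count filter 1 was called lower. In the edgeR fit of all 8 libraries 1 had an unadjusted p under 0.05, against 6235 of all 19450 genes tested. The part of dermal cells in the keratin, envelope, metalloproteinase, chemokine, growth factor ligand and cytokine results was not tested.

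Hair shaft and inner root sheath genes differed between the libraries of each treated group. Their list had 3 of 25 genes called higher, against 8.9% of all genes tested, at a median of 2.32. None of the 25 was higher in DMBA/TPA 2 than in DMBA/TPA 1. The calls numbered 0 without DMBA 1, 0 without DMBA 2, 1 without DMBA/TPA 1 and 16 without DMBA/TPA 2, and 1 without Control DMBA TPA 1 and 1 without Control DMBA TPA 2. They also numbered 5 without Control DMBA 1 and 5 without Control DMBA 2. Krt33b, a hair shaft keratin, was at 1.58 and 0.761 CPM in DMBA and 53.1 and 5.13 CPM in DMBA/TPA (4.65 ± 1.07, adjusted p = 0.0256). Its call was lost without DMBA 1 (0.113) and DMBA 2 (0.184), in the fit of the 4 compared libraries (0.0531) and with limma voom (0.126), against 2.48e-06 to 0.184 over all 15 alternatives. In the acetone contrast 12 of the 25 were called lower, at a median of -7.02, so that these follicle genes varied across all groups.

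The largest falls by the naming rule brought in genes outside the lists. Lama1, the alpha chain of laminin 111, had the smallest adjusted p among them and fell from 38.2 and 53.4 CPM in DMBA to 1.57 and 1.84 CPM in DMBA/TPA (-4.74 ± 0.21, adjusted p = 8.37e-05). It was at 29.9 and 34.7 CPM in Control DMBA and 63.7 and 67.8 CPM in Control DMBA TPA, so DMBA/TPA lay far below all other groups. Pyy, which encodes peptide YY, fell from 42.2 and 31.1 CPM to 1.34 and 1.57 CPM (-4.65 ± 0.41, adjusted p = 0.000861), and it was at 1.99 and 0.741 CPM in Control DMBA and 2.69 and 2.14 CPM in Control DMBA TPA. For Pyy the DMBA libraries were therefore the ones that stood apart. Sult5a1, a sulfotransferase, fell from 148 and 157 CPM to 26.4 and 21.8 CPM (-2.66 ± 0.20, adjusted p = 0.000468). Kcnma1, a calcium-activated potassium channel, fell from 8.4 and 10.8 CPM to 1.14 and 0.901 CPM (-3.23 ± 0.37, adjusted p = 0.00208), and neither it nor Sult5a1 was called in the acetone contrast.

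Other falls were shared with the acetone contrast. Aldh1a2, a retinoic acid-synthesising enzyme, fell from 12.7 and 6.2 CPM to 0.826 and 0.392 CPM (-3.95 ± 0.47, adjusted p = 0.00243), and the acetone contrast was -5.86 ± 0.61 (adjusted p = 0.00494). Gdf10, a growth factor of the TGF-beta superfamily, fell from 12.7 and 10.8 CPM to 1.38 and 0.666 CPM (-3.52 ± 0.39, adjusted p = 0.00176), and the acetone contrast was -4.81 ± 0.41 (adjusted p = 0.00265). For both genes the difference of contrasts was not called (adjusted p = 0.165 and 0.15).

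Set against the acetone contrast as a whole, the treated contrast had calls in common with it in both directions. The contrasts compare the means of different libraries. Their calls are not independent, because all 8 libraries entered the same estimate of spread. Between the acetone groups 1216 genes (6.25%) were called, 383 higher (1.97%) and 833 lower (4.28%). Of the 1731 genes higher in DMBA/TPA, 93 were also called higher between the acetone groups, which is 5.37% of the treated calls and 24.3% of the acetone calls, and 125 were called lower. Of the 1103 genes lower in DMBA/TPA, 133 were also called lower, 12.1% of the treated and 16% of the acetone calls. The difference of the contrasts was called in the same direction for 969 (56%) of the genes higher in DMBA/TPA and 419 (38%) of those lower. It was called in the opposite direction for 0 of those higher and 10 of those lower. Over all genes it was called for 2460 (12.6%), 1692 higher (8.7%) and 768 lower (3.95%). The counts for the acetone contrast ranged from 42 to 2641 and for the difference from 419 to 5374 when single libraries were left out.

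**Figure D5:**
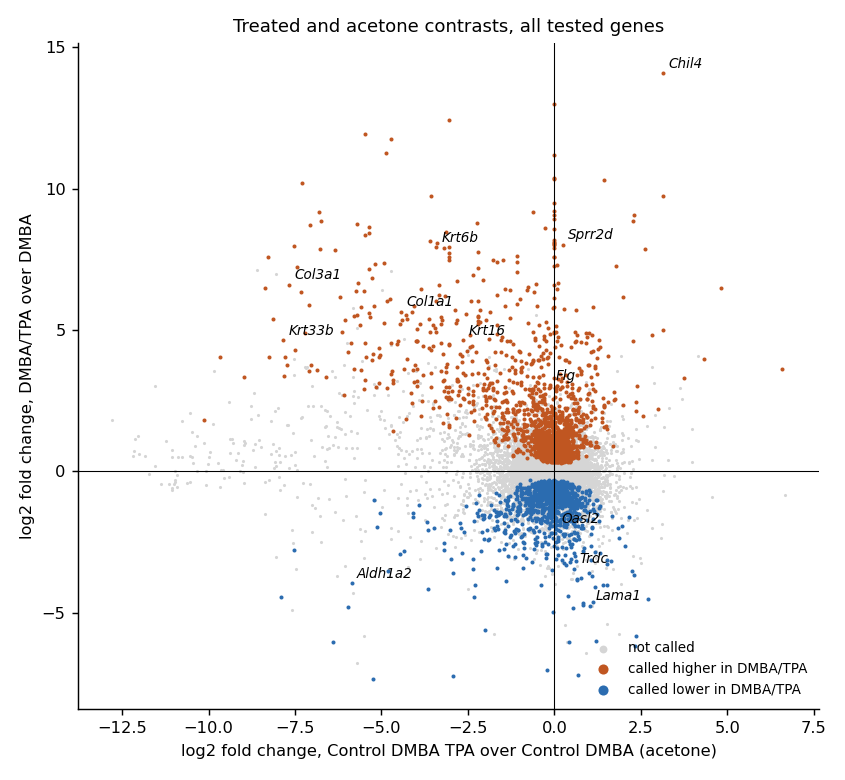
Log2 fold change of DMBA/TPA over DMBA (vertical axis) against that of Control DMBA TPA over Control DMBA (horizontal axis), 1 point per gene tested, coloured by the treated call. Krt6b, Krt16 and Col3a1 lie high on the left, where the contrasts have opposite signs, and Aldh1a2 lies low on the left, where both are negative.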

How the data were processed

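The authors deposited raw counts of reads for each Ensembl gene, with no normalization. The submitters' processing notes name the tools FastQC, cutadapt, TopHat2 and Bowtie2 and the mm10 build. Versions, counting program and strand setting were not given in the sources used here. As stated per the labels' protocols, RNA with an integrity number above 7 was depleted of ribosomal RNA and made into directional libraries. The 5 summary rows of each file were dropped, and genes held 35.24% to 43.347% of all records. Of the gene identifiers, 99.5% matched GENCODE M21 (GRCm38, the build called mm10), which gave symbols, coordinates and exon lengths.

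Genes passing filterByExpr (minimum count 10, minimum total 15) were fitted in 1 model of all 8 libraries with a mean per group, in edgeR 4.0.16 (R 4.3.3) with TMM factors from 0.911 to 1.05. The biological coefficient of variation was 0.165, with 4 residual and 4.23 prior degrees of freedom. A gene with no count in a group was set against a floor of 3 counts for that group, and 1 to 3 counts gave a ratio with an exact 95% counting interval. The pipeline was tested on simulated data. Alternatives were a 2-fold minimum, RLE or unadjusted library sizes, no filter on low counts, DESeq2 1.42.0, limma 3.58.1 voom, a replicate block, the compared libraries only, and each library left out. No group held a library deposited under 2 names (chi-square divided by degrees of freedom 12 to 72), and equal replicate numbers did not pair libraries across groups (correlations of deviations from -0.152 to 0.035).

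The compared groups and all 51 gene lists were chosen with earlier results of these data known. The naming rule took the 12 largest changes per direction at a mean of at least 5 CPM with no overlap between groups, the 4 most significant members of each list, and 20 set genes. Other list members are named to describe their list and were chosen after their values were seen. Without the strand setting, values of genes with an overlapping neighbour or a near-identical copy remain uncertain. Promoter windows are those of RefSeq. Some genes are not reported here.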

Additional observations from a re-analysis of the deposited data

Results flagged for a closer look

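The share of records not aligned was 9.82% in DMBA/TPA 1, 16.4% in DMBA/TPA 2 and 7.47% in DMBA 2, each above the share in all 4 acetone libraries. These records carry no gene and entered no comparison.

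For 2460 genes the difference between DMBA/TPA and DMBA was itself different from the difference between their acetone groups, by the test of that difference in the same fit.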

How the results depend on the processing

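The number of genes called (2834) was 4152 with no low-count filter, 1816 in the fit of the compared libraries only, 1548 with a 2-fold minimum, and 443 to 4825 with single libraries left out. Without DMBA/TPA 2 the call was kept by 1269 of the 2834 genes, and without DMBA 2 by 441. For the acetone contrast (1216) the values were 2451, 1858 and 743, 2087 with DESeq2, and 42 to 2641 with single libraries left out. For the difference of contrasts (2460) it was 4041 with no low-count filter and 419 to 5374 with single libraries left out. The cause was not tested, apart from the fewer samples or genes that each setting leaves. On total counts the median of all genes moved from -0.016 to -0.13, and 45.5% of calls were higher, against 61.1%.

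With the replicate number as a block, the counts were 2412, 834 and 2097. The numbers did not pair the libraries, so a call lost under the block is not read as a weaker effect.

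Of 200 named genes called, 85 kept their call in every alternative. Log2 fold changes that changed sign were those of Hras, at -0.050 on total counts and -0.13 to 0.28 with single libraries left out, of Mki67, at -0.038 and -0.055 to 0.23, of Ppl, at -0.098 and -0.031 to 0.071, and of Cd207, at 0.012 with RLE size factors, 0.011 with DESeq2 and -0.052 to 0.028 with single libraries left out. None of the 4 was called in any of these settings. With 2 libraries per group, the depth limits genes near the filter, such as those with no count in DMBA.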

Other observations

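Circadian genes, which belong to no comparison of the study's design, had 5 of 16 called lower in DMBA/TPA (among them Cry2, Per2, Per3 and Tef) and 1 higher (Clock, called in 3 of 15 alternatives), against 5.67% and 8.9% of all genes, and the lower calls numbered 3 without DMBA 1, 2 without DMBA 2, 7 without DMBA/TPA 1 and 2 without DMBA/TPA 2, and 2 without Control DMBA TPA 1 and 2 without Control DMBA TPA 2. Per2, a repressor in the clock loop, fell from 108 and 100.2 CPM in DMBA 1 and 2 to 41.2 and 49.6 CPM in DMBA/TPA 1 and 2 (-1.20 ± 0.13, adjusted p = 0.00169). It was lower in both DMBA/TPA libraries than in the acetone libraries, where it stood at 68.7 and 69 CPM in Control DMBA and 88.1 and 107 CPM in Control DMBA TPA. The labels give no hour of harvest, and its part in these values was not tested.

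Among genes of papilloma progression, 7 of 13 were called higher and 1 lower, and the higher calls numbered 3 without DMBA 1, 2 without DMBA 2, 7 without DMBA/TPA 1 and 5 without DMBA/TPA 2. Hmga2, a chromatin protein of fetal and tumour cells, rose from 0.452 and 0.544 CPM to 15.1 and 57.4 CPM (6.17 ± 0.66, adjusted p = 0.00162). Pitx1, a homeobox factor reported in mouse skin squamous carcinoma, rose from 0.42 and 0.381 CPM to 18.7 and 80.9 CPM (6.95 ± 0.81, adjusted p = 0.00226). Both were about 4 times higher in DMBA/TPA 2 than in DMBA/TPA 1. Igf2bp3, a fetal RNA-binding protein, went the other way, with 79 counts in DMBA and 1 in DMBA/TPA, a ratio of CPM of 0.0168 with an exact 95% counting interval of 0.000421 to 0.0965. Mitochondrially encoded genes took 2.24% and 1.82% of gene counts in DMBA and 1.7% and 0.742% in DMBA/TPA, the lowest value being that of DMBA/TPA 2.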
